A study of Mus musculus with 6 samples.

Results

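The 10 genes described here encode enzymes of serine synthesis (Phgdh, Psat1, Psph), of folate-dependent one-carbon metabolism (Shmt1, Shmt2, Mthfd2, Mthfd1l, Aldh1l2), of asparagine synthesis (Asns) and of proline and ornithine synthesis (Aldh18a1). They were taken by name as enzymes of 4 connected pathways, after the Ensembl identifiers of the count table had been matched to gene symbols. All 10 were found among the 56941 genes of the table, and all 10 were among the 13299 genes with enough counts for a test.

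Serine is made from a glycolytic intermediate in successive steps by PHGDH, PSAT1 and PSPH, and the SHMT enzymes convert it to glycine while a one-carbon unit passes to folate. The folate enzymes of the mitochondria and those of the cytosol run parallel versions of the same reactions, and the formate that leaves the mitochondria feeds purine and thymidylate synthesis in the cytosol. Activated T cells need these nucleotides to divide. Asparagine synthetase and the enzyme that starts proline and ornithine synthesis draw on aspartate and glutamate, and genes of all 4 pathways are textbook targets of ATF4, a transcription factor of the amino acid and stress response.

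RNA was sequenced from 6 samples of mouse CD8+ T cells, 3 treated with vehicle and 3 with S1P, a signalling lipid that acts through S1PR1 and related receptors. Per the labels the starting cells were purified naive CD8+ T cells from the spleen of B6 mice, while the methods of the study name either purified naive T cells or whole splenocytes, and which were used for these samples is not settled here. In both groups the cells were kept for 3 days in complete RPMI-1640 with added L-glutamine, antibodies to CD3 and CD28, and IL-2 at 100 U/ml. After 24 h, S1P was added at 5 µM in one group and vehicle in the other. The labels call the replicates of a group biological but do not say how many mice they came from, so p-values measure the spread between these samples. A single dose and a single time of harvest were measured, and transcripts were measured, not enzyme protein, activity or metabolites.

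Vehicle-treated samples held 13636095 to 17089831 counts in all, and S1P-treated samples 12048880 to 17384084. S1P-treated replicate 2 stood apart. Mitochondrially encoded genes took 7.8% of its counts and between 4.1% and 4.93% of the counts in the other 5 samples. The mean chi-square statistic per gene was 31.2 and 18.4 for its pairings with the other S1P-treated samples, against 5.98 for the other pair and 3.81 to 3.97 for the vehicle-treated pairs. Results of the members that rest on this replicate are given with and without it.

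The labelled cell type was checked against marker genes, with counts normalized for library size by the TMM method of edgeR. The 8 genes listed for CD8 T cells were present, and their sum was 24900 to 27600 normalized counts with vehicle and 23300 to 25700 with S1P. CD4 T cells express 6 of these genes too (Cd3d, Cd3e, Cd3g, Trac, Cd2 and Lck), so that the sum does not tell the T cell classes apart. Cd8a and Cd8b1, the chains of the CD8 receptor, were lower after S1P (log2 fold changes of -0.67 and -0.55), and Cd2 was higher (0.33). Cd4, the defining marker of the other T cell class, stood at 2740 to 3280 normalized counts in vehicle-treated and 2870 to 3750 in S1P-treated samples. Cd8a stood at 3060 to 3690 with vehicle, where the ranges of both genes overlapped, and at 1940 to 2120 with S1P, below Cd4 in every sample. Cd8b1 stood at 1500 to 2160 with vehicle and 1080 to 1270 with S1P. Of the 4 CD4 T cell markers, 2 were higher after S1P (Cd40lg and Zbtb7b) and 0 lower, and their sum ran from 3380 to 4010 and from 3710 to 4710. All 8 B cell markers were also measured, with sums of 24200 to 29700 in vehicle-treated and 25500 to 26900 in S1P-treated samples. Ms4a1 was lower after S1P (-0.39), and none of the other 7 B cell markers passed the thresholds in either direction. Myeloid markers summed to at most 90.6 normalized counts, with S100a8 and S100a9 at 0 in every sample. NK cell markers summed to at most 54.2. None of the 6 erythroid markers had enough counts for a test, and Hba-a1 was at no more than 2.49. In such bulk samples fewer cells of a type and less RNA per cell cannot be told apart, and the part of other cell types in the results was not tested.

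The comparison of S1P with vehicle asks which of the enzymes differed in transcript level after the treatment. Calls needed an adjusted p no higher than 0.05 and a log2 fold change no smaller than 0.3 in size. The p came from the quasi-likelihood test of edgeR and was adjusted over all tested genes by the method of Benjamini and Hochberg. Aldh1l2, Mthfd1l and Asns were higher after S1P, Shmt1 was lower, and Phgdh, Psat1, Psph, Shmt2, Mthfd2 and Aldh18a1 did not pass both thresholds. Thus 4 of the 10 members were called, against 23.1% of all tested genes. Of the members, 3 were called higher, against 12.7% of all tested genes, and 1 lower, against 10.4%. For 5 of the 10 members the normalized counts of vehicle and S1P did not overlap, and the same held for 45.6% of all tested genes. The median log2 fold change was 0.12 over the members and 0.01 over all tested genes. Without S1P-treated replicate 2 the member median was 0.21 and the groups of 7 members did not overlap. Groups with fewer samples overlap less often for any gene, so the 45.6% is no reference for that count. The share of all tested genes in that fit is not given here. With S1P-treated replicate 1 left out the member median was 0.07, and with replicate 3 left out it was 0.08.

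The start sites of these genes were compared for the core of the C/EBP-ATF response element, TGATGNAA on either strand, since Asns is a classical target of this element. RefSeq promoter windows on GRCm38.p6, with 250 bases before to 50 bases after each start, were given for 9 of the 10 members. Of these, 1 member, Asns, held the core, against 4.51% of all 27025 genes with a window and 3.97% of all 32851 windows. The E-box CACGTG, a motif of MYC and related factors with no overlap with the core, was in 1 member, Aldh18a1, 59 bases before the start. It was in 8.09% of all genes with a window and in 7.15% of all windows. The 250 bases before the start are shown for the members called that have a window. They are shown too for Pycr1, the proline synthesis enzyme after ALDH18A1 that also held the core. The window of Mthfd1, a cytosolic folate gene that is not a member, was searched as well and did not hold the core. Among the companions only Pycr1 and Mthfd1 were looked up. Whether the core goes with the direction of change was not tested. Capitals mark the core, which begins 23 bases before the start in Asns and 103 bases before it in Pycr1. Sequences are written 5′ to 3′ on the strand of the gene.
Asns chr6:7693210-7693459 (- strand): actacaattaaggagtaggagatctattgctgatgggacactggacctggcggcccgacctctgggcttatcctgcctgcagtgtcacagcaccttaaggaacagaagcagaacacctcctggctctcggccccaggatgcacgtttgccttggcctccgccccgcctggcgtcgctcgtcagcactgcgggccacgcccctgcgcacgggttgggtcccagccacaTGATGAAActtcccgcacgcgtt
Mthfd1l chr10:3972825-3973074 (+ strand): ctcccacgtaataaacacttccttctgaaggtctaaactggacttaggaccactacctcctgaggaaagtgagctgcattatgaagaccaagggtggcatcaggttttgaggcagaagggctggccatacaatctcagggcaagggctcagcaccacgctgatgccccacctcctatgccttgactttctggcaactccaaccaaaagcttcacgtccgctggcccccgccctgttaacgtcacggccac
Shmt1 chr11:60811266-60811515 (- strand): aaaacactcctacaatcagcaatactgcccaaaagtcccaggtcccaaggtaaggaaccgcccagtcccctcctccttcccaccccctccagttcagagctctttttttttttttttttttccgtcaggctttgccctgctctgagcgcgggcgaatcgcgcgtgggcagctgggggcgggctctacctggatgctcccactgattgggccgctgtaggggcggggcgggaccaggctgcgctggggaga
Pycr1 chr11:120643749-120643998 (- strand): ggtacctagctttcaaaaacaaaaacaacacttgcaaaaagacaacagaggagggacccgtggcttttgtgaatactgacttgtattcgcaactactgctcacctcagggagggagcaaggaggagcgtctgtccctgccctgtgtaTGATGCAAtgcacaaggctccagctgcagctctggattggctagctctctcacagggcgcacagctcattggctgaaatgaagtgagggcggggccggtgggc
The matches are a description of these windows, and no binding was measured. No match says only that these letters are not in this window.

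**Figure D1:**
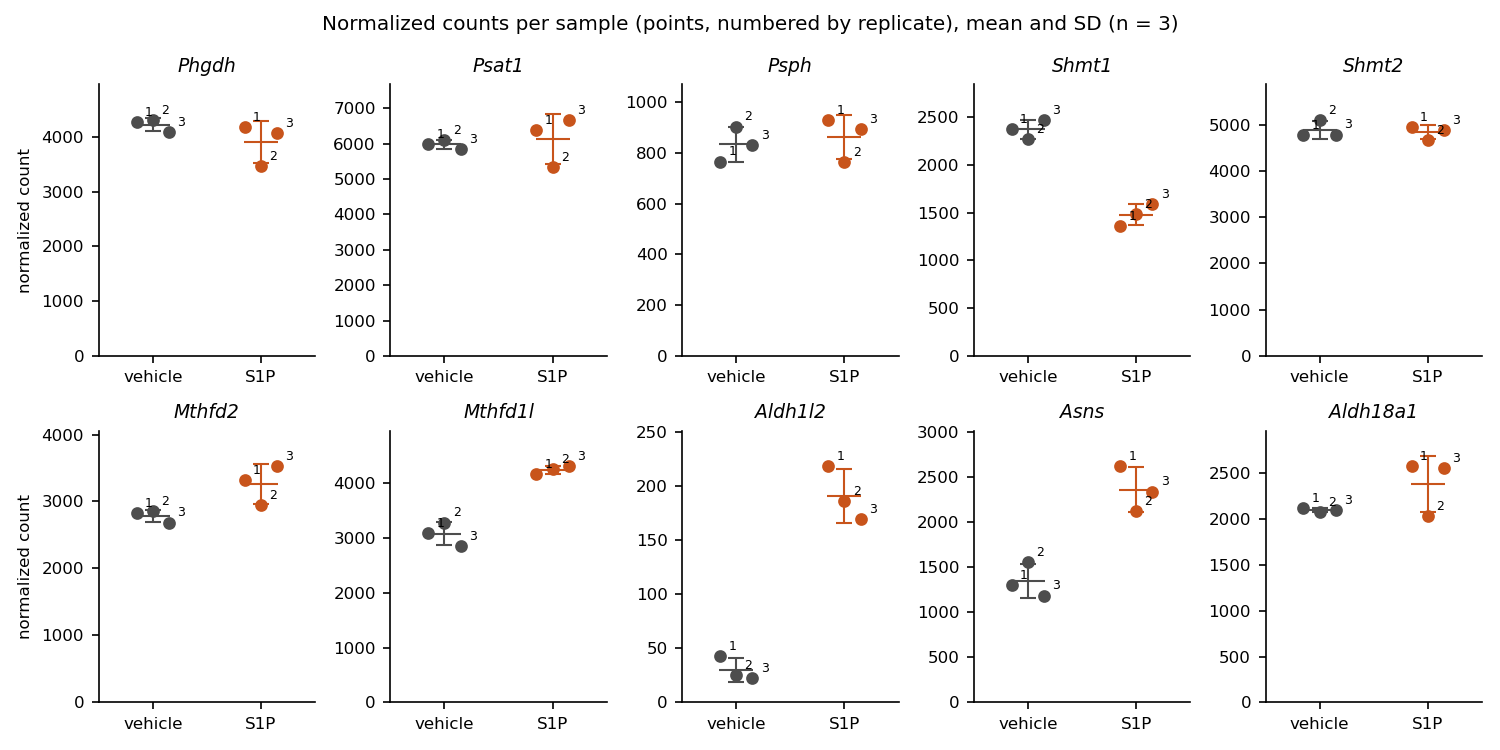
Normalized counts of the 10 members in each sample, with vehicle in grey and S1P in orange, points numbered by replicate and bars giving mean and SD of 3 samples. Each axis starts at 0, and the groups are apart for Shmt1, Mthfd2, Mthfd1l, Aldh1l2 and Asns and overlap for the other 5 members.

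The transcripts of the serine synthesis enzymes were abundant in both groups and none of the 3 passed the thresholds. Phgdh, the dehydrogenase that commits 3-phosphoglycerate to serine (GRCm39, chr3:98220484-98255047, - strand), had normalized counts of 4274, 4308 and 4088 in vehicle-treated and 4172, 3467 and 4071 in S1P-treated replicates 1 to 3. S1P-treated replicates 1 and 3 lay within or next to the vehicle-treated samples, and replicate 2 lay below all of them. The mean was 4223 ± 118 (SD, n = 3) with vehicle and 3903 ± 381 (SD, n = 3) with S1P, with a log2 fold change of -0.11 ± 0.08 (SE), a 95% confidence interval from -0.28 to 0.06 and an adjusted p of 0.309 by edgeR. Without S1P-treated replicate 2 it was -0.03.

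Psat1, the aminotransferase of the pathway (chr19:15882039-15924701, - strand), had normalized counts of 5994, 6112 and 5850 with vehicle and 6376, 5331 and 6675 with S1P. Replicates 1 and 3 of the S1P group lay above every vehicle-treated sample and replicate 2 below them. The log2 fold change was 0.03 ± 0.08 (SE), with a 95% confidence interval from -0.15 to 0.22 and an adjusted p of 0.795 by edgeR. Psph, the phosphatase that releases serine (chr5:129841925-129864513, - strand), had normalized counts of 766, 904 and 831 with vehicle and 930, 763 and 895 with S1P. The groups overlapped over nearly their whole ranges. Its log2 fold change was 0.05 ± 0.09 (SE), with a 95% confidence interval from -0.15 to 0.25 and an adjusted p of 0.696 by edgeR. In S1P-treated replicate 2 both genes were below every vehicle-treated sample. With that replicate left out the log2 fold change was 0.13 for Psat1 (adjusted p = 0.1 by edgeR) and 0.14 for Psph (adjusted p = 0.198 by edgeR), and neither was called. The sign turned in the fit without S1P-treated replicate 3 for Psat1 (-0.04), and for Psph in the fits without replicate 1 of either group (-0.01 in each). Of the 3 serine synthesis genes, 0 had an unadjusted p under 0.05 by edgeR, and DESeq2 and limma-voom called 0. Their intervals reach no further than 0.28 in size on the log2 scale, short of the 0.3 needed for a call.

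Within the folate enzymes, the cytosolic serine hydroxymethyltransferase was lower after S1P and its mitochondrial counterpart did not pass the thresholds. Shmt1, the cytosolic enzyme (chr11:60661185-60708167, - strand), had normalized counts of 2377, 2270 and 2470 with vehicle and 1362, 1485 and 1585 with S1P. Every S1P-treated sample lay below every vehicle-treated sample. The mean fell from 2373 ± 100.0 (SD, n = 3) to 1477 ± 112 (SD, n = 3), which is 0.623 of the vehicle level, with a log2 fold change of -0.68 ± 0.07 (SE), a 95% confidence interval from -0.85 to -0.52 and an adjusted p of 0.000101 by edgeR. Its rank was 344 from the lowest log2 fold change among the 13299 tested genes.

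Shmt2, the mitochondrial enzyme (chr10:127352266-127358323, - strand), had normalized counts of 4775, 5105 and 4787 with vehicle and 4951, 4666 and 4887 with S1P. The groups overlapped. The log2 fold change was -0.02 ± 0.07 (SE), with a 95% confidence interval from -0.16 to 0.13 and an adjusted p of 0.88 by edgeR. The difference between the paired enzymes was tested as a ratio within each sample, which needs no scaling between libraries. The ratio of Shmt2 to Shmt1 counts was 2.01, 2.25 and 1.94 in vehicle-treated and 3.64, 3.14 and 3.08 in S1P-treated replicates. On the log2 scale it rose from 1.04 ± 0.11 (SD, n = 3) to 1.71 ± 0.13 (SD, n = 3), which is 1.59-fold, without overlap of the groups (exact permutation test, two-sided, p = 0.1). This is the smallest p that 3 samples against 3 allow, and it stayed 0.1 after adjustment over the 4 ratios tested, so that the ratios cannot pass a threshold of 0.05.

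The 3 members that act downstream of SHMT2 in mitochondria, Mthfd2, Mthfd1l and Aldh1l2, had positive log2 fold changes of very different size. Mthfd2, the mitochondrial methylenetetrahydrofolate dehydrogenase and cyclohydrolase (chr6:83282673-83302890, - strand), had normalized counts of 2827, 2851 and 2686 with vehicle and 3317, 2945 and 3524 with S1P. The groups did not overlap, though S1P-treated replicate 2 was only just above the vehicle-treated samples. Its log2 fold change was 0.23 ± 0.08 (SE), with a 95% confidence interval from 0.06 to 0.39. The adjusted p of 0.0434 by edgeR passed the threshold on p, and the fold change did not reach the threshold on size. The adjusted p was 0.00158 without S1P-treated replicate 2 and 0.187 without S1P-treated replicate 3, with log2 fold changes of 0.30 (before rounding under the threshold) and 0.16.

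Mthfd1l, the mitochondrial formate-tetrahydrofolate ligase that releases formate (chr10:3922870-4117081, + strand), had normalized counts of 3087, 3276 and 2853 with vehicle and 4159, 4249 and 4301 with S1P. The S1P-treated samples were all higher than the vehicle-treated samples and close together. The mean rose 1.38-fold, from 3072 ± 212 (SD, n = 3) to 4236 ± 72.3 (SD, n = 3), with a log2 fold change of 0.46 ± 0.07 (SE) and an adjusted p of 0.000724 by edgeR. S1P-treated replicate 2 lay between the other S1P-treated samples here, and without it the log2 fold change was 0.46.

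Aldh1l2, the mitochondrial formyltetrahydrofolate dehydrogenase that oxidizes the one-carbon unit to carbon dioxide (chr10:83323314-83370005, - strand), changed most among the members. It had raw counts of 50, 23 and 24 with vehicle and 263, 144 and 146 with S1P, and normalized counts of 42.5, 24.9 and 22.7 against 218, 186 and 169. Every S1P-treated sample was well above every vehicle-treated sample, and the lowest S1P-treated value was that of replicate 3. The mean rose 6.36-fold, from 30.0 ± 10.8 (SD, n = 3) to 191 ± 24.9 (SD, n = 3), with a log2 fold change of 2.65 ± 0.21 (SE), a 95% confidence interval from 2.18 to 3.12 and an adjusted p of 2.1e-05 by edgeR. Its log2 fold change ranked 22 from the highest of 13299 tested genes. By level it was far below the other members, and its larger error goes with its low counts. Nopchap1, whose exons cover 14.1% of the exonic bases of Aldh1l2 on the other strand, had raw counts of 1171 to 2122 and a log2 fold change of -0.05 with an adjusted p of 0.694 by edgeR.

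Asns, the enzyme that makes asparagine from aspartate with glutamine as nitrogen donor (chr6:7671667-7728461, - strand), had normalized counts of 1303, 1557 and 1185 with vehicle and 2618, 2125 and 2339 with S1P. All S1P-treated samples were higher than all vehicle-treated samples. The mean rose 1.75-fold, from 1348 ± 190.0 (SD, n = 3) to 2361 ± 247 (SD, n = 3), with a log2 fold change of 0.81 ± 0.10 (SE), a 95% confidence interval from 0.58 to 1.04 and an adjusted p of 0.000273 by edgeR. It ranked 687 from the highest log2 fold change.

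Aldh18a1, the pyrroline-5-carboxylate synthase that turns glutamate into the precursor of proline and ornithine (chr19:40538698-40576949, - strand), had normalized counts of 2114, 2076 and 2093 with vehicle and 2572, 2033 and 2550 with S1P. Replicates 1 and 3 of the S1P group were above the closely spaced vehicle-treated samples and replicate 2 was below them. The log2 fold change was 0.19 ± 0.09 (SE), with a 95% confidence interval from -0.00 to 0.38 and an adjusted p of 0.128 by edgeR. Without S1P-treated replicate 2 it was 0.29 with an adjusted p of 0.00106, still under the threshold on size.

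**Figure D2:**
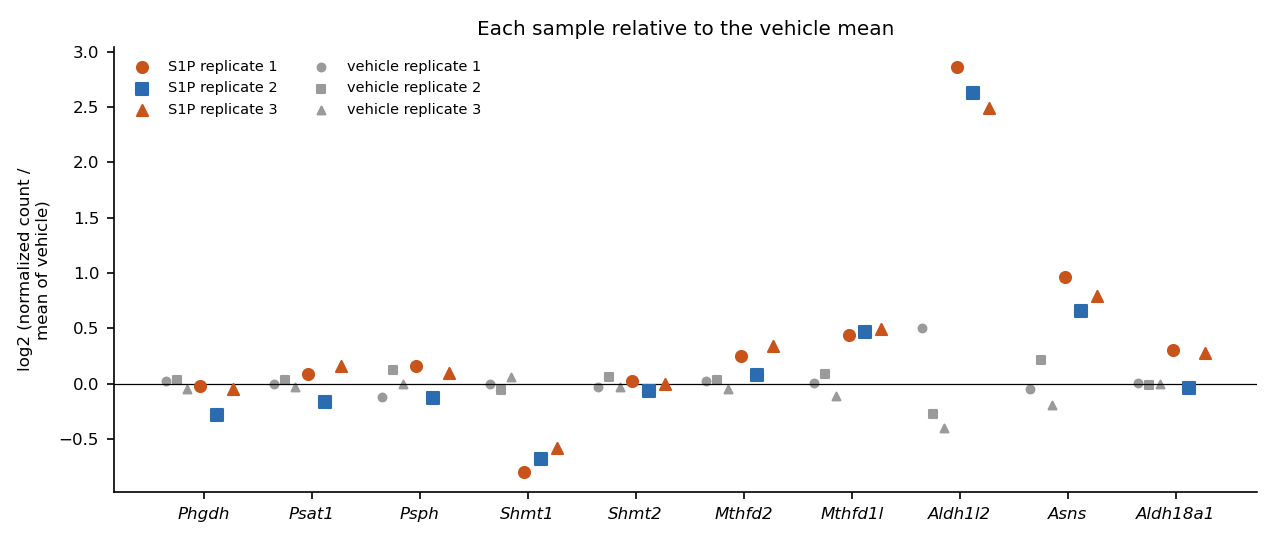
Log2 of the normalized count over the vehicle mean for each member, with S1P-treated samples as large symbols (replicate 2 in blue) and vehicle-treated samples as small grey symbols. S1P-treated replicate 2 is the lowest S1P-treated sample for 7 of the 10 members, and Shmt1, Mthfd1l and Aldh1l2 are the exceptions.

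Across the members, S1P-treated replicate 2 was the lowest of the S1P-treated samples for 7 of 10 genes (Phgdh, Psat1, Psph, Shmt2, Mthfd2, Asns and Aldh18a1). The median of the members' log2 ratios to the vehicle mean was 0.20 in S1P-treated replicate 1, -0.06 in replicate 2 and 0.22 in replicate 3. The higher mitochondrial share of counts in replicate 2 moved with these values, and its part in them was not tested. The 4 calls, of Shmt1, Mthfd1l, Aldh1l2 and Asns, were also made without it.

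The remaining ratios contrasted single pairs of enzymes. A pair does not stand for its compartment as a whole, since Slc25a32 and Sfxn1, which carry folate and serine into mitochondria, were called lower after S1P, as were Shmt1 and Mthfd1 of the cytosol. Mthfd1 encodes the cytosolic enzyme that carries out the reactions of MTHFD2 and MTHFD1L in one protein. The ratio of Mthfd2 to Mthfd1 counts was 0.624, 0.654 and 0.583 in vehicle-treated and 1.18, 0.922 and 1.03 in S1P-treated replicates. It rose 1.68-fold, from -0.69 ± 0.08 to 0.06 ± 0.18 on the log2 scale (SD, n = 3 each, exact permutation test, two-sided, p = 0.1). The ratio of Asns to Aldh18a1 counts was 0.616, 0.75 and 0.566 with vehicle and 1.02, 1.05 and 0.917 with S1P, a 1.55-fold rise (exact permutation test, two-sided, p = 0.1). The ratio of Psat1 to Phgdh, consecutive enzymes of serine synthesis, was 1.4, 1.42 and 1.43 with vehicle and 1.53, 1.54 and 1.64 with S1P, a small 1.11-fold rise without overlap of the groups (exact permutation test, two-sided, p = 0.1). S1P-treated replicate 2 lay close to the other S1P-treated samples in this last ratio, although both of its terms were lowest there.

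**Figure D3:**
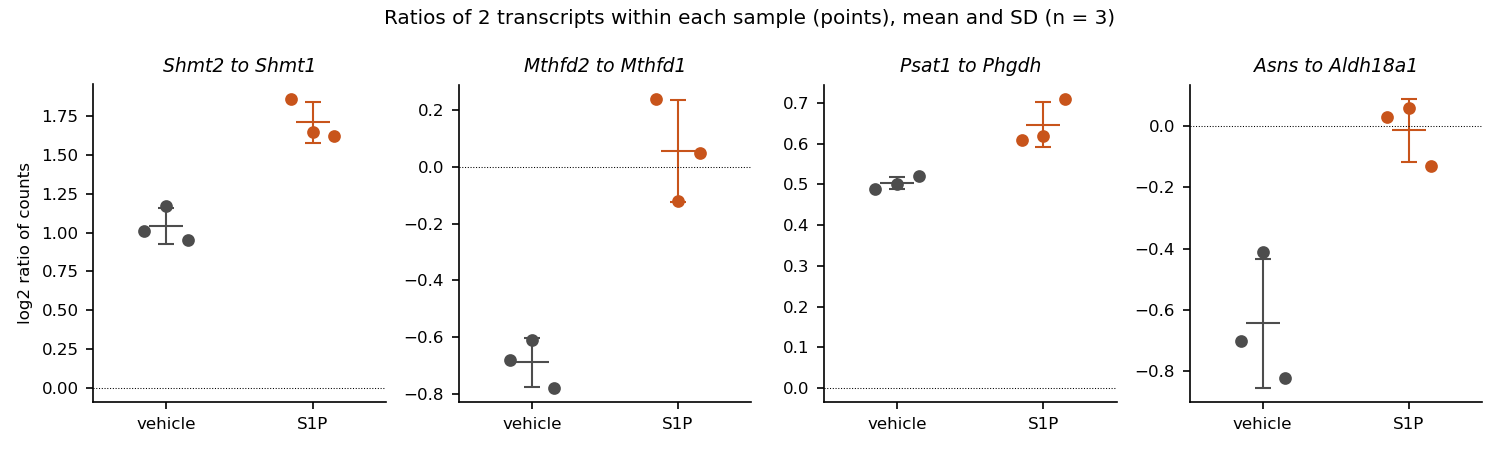
Log2 ratios of counts of 2 transcripts within each sample (points), with mean and SD of 3 samples, vehicle in grey and S1P in orange, and a dotted line at equal counts. In all 4 panels the S1P-treated samples lie above the vehicle-treated samples, by 0.67 for Shmt2 to Shmt1, 0.75 for Mthfd2 to Mthfd1, 0.15 for Psat1 to Phgdh and 0.63 for Asns to Aldh18a1.

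Levels were compared between members per length, as TPM (a gene's share of all transcripts after division by length) computed from the counts and the union of each gene's exons in GENCODE vM39. With vehicle the order of the mean TPM was Phgdh at 449, Shmt2 at 357, Psat1 at 305, Mthfd2 at 229, Aldh18a1 at 121, Shmt1 at 110, Mthfd1l at 79.4, Asns at 34.5, Psph at 34.0 and Aldh1l2 at 1.21. Only Asns and Psph, among neighbours in this order, had overlapping ranges. With S1P, Mthfd1l at 104 TPM stood above Shmt1 at 65.1, the reverse of their order with vehicle, and their ranges did not overlap. Asns at 58.0 TPM stood above Psph at 33.8, and Aldh1l2 remained lowest at 7.31. The ranges of Phgdh, Shmt2, Psat1 and Mthfd2, each against the next, overlapped with S1P. These overlaps rest on S1P-treated replicate 2, the lowest S1P-treated sample of each of these genes (315, 292, 233 and 207 TPM). Among the other S1P-treated samples their ranges did not overlap, in the same order as with vehicle. With the longest transcript as the length, Psat1 moved next to Phgdh (467 against 480 TPM with vehicle) and Aldh18a1 fell below Shmt1 and Mthfd1l (109 against 127 and 118), so that order among members of like level depends on the length used. Aldh1l2 remained lowest by either length.

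**Figure D4:**
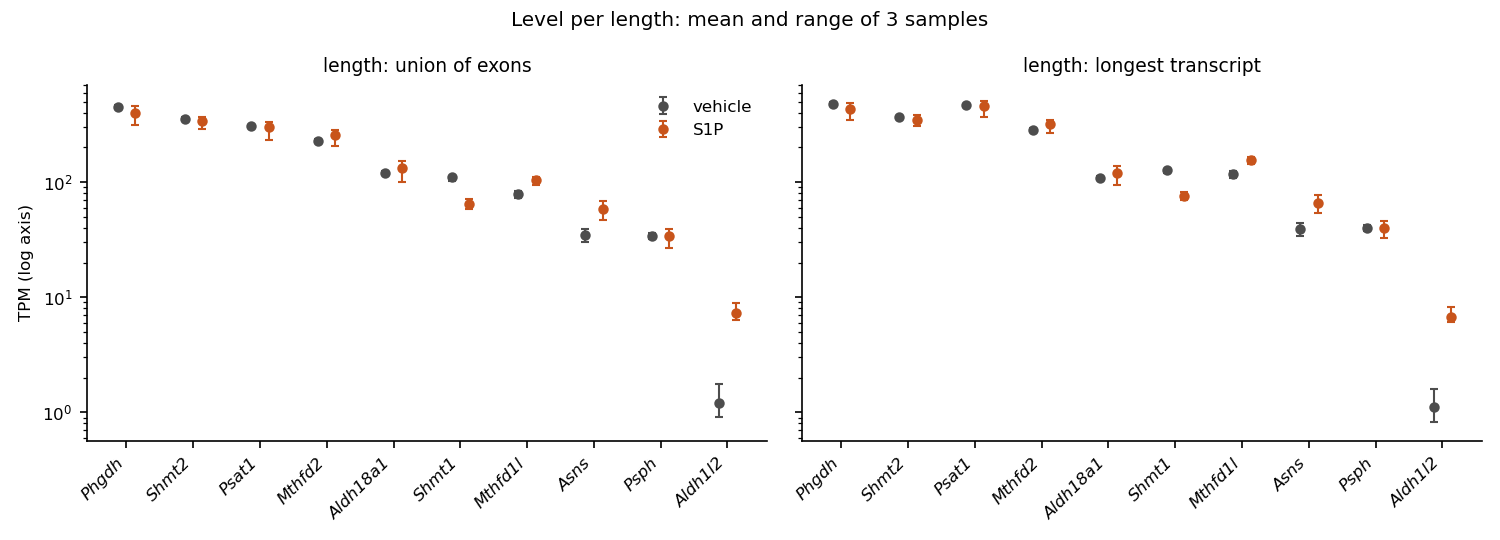
Mean TPM of each member with the range of 3 samples, on a log axis, with vehicle in grey and S1P in orange, for 2 definitions of gene length. Shmt1 is lower and Mthfd1l, Asns and Aldh1l2 are higher with S1P in both panels, and Aldh1l2 is the lowest in each.

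Companion genes were read from the same fit, in 9 lists with 118 genes in the table, of which 100 were tested. Of these 25 were higher and 22 lower after S1P, against 12.7% and 10.4% of all tested genes. The same shares of all tested genes are the reference for the counts of each list below. Of the 25 called higher, 14 were in the list of ATF4 and related stress genes, chosen with results of these data known. The pooled count of genes called higher therefore does not describe the metabolic lists. In the list of other folate genes, every gene that was called was lower after S1P. Of 13 tested, 0 were higher and 5 lower, with a median log2 fold change of -0.22. Mthfd1 had normalized counts of 4529, 4361 and 4607 with vehicle and 2817, 3194 and 3407 with S1P, a log2 fold change of -0.52 ± 0.08 (SE) with an adjusted p of 0.000701 by edgeR. Slc19a1, the reduced folate carrier of the plasma membrane, fell by 0.80 on the log2 scale, and Slc25a32, which carries folate into mitochondria, by 0.52. Fpgs, which traps folate in cells by adding glutamates, fell by 0.53, and Tyms, the thymidylate synthase, by 0.30. By edgeR, 0 of the 13 were higher at an unadjusted p under 0.05 as well, and DESeq2 and limma-voom also called 0 higher. The call of Tyms was lost with replicate 1 of either group left out (-0.29 in each) and with upper-quartile scaling (-0.28). Mthfd2l, a relative of Mthfd2, was measured at 21.2 ± 3.7 normalized counts (SD, n = 3) with vehicle and did not pass the thresholds.

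Purine synthesis uses formyl units that these enzymes supply. Of 13 tested genes, 0 were higher and 5 lower, with a median log2 fold change of -0.21. Gart and Atic, whose enzymes take up the formyl units, fell by 0.63 and 0.42 on the log2 scale. Pfas fell by 0.55, Adsl by 0.53 and Ppat, the first committed enzyme, by 0.32. Again 0 were higher at an unadjusted p under 0.05 by edgeR, and 0 were called higher by DESeq2 or limma-voom. The call of Ppat was lost without vehicle-treated replicate 1 (-0.31, adjusted p = 0.0504 by edgeR), with S1P-treated replicate 1 left out (-0.24) and with upper-quartile scaling (-0.29). Paics, at 7095 ± 124 normalized counts (SD, n = 3) with vehicle, had a log2 fold change of -0.03 and was not called. Of the 3 tested genes of glycine cleavage, Gcsh, the lipoate-bearing carrier protein, fell by 0.68, and Amt and Dld were not called. Amt, at 22.5 ± 1.51 normalized counts (SD, n = 3) with vehicle, had a log2 fold change of 0.66 with an adjusted p of 0.0724 by edgeR. Its groups did not overlap. Dld had a log2 fold change of 0.10.

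Genes that move or use serine and glycine split in direction. Of 10 tested transport genes, 2 were higher and 2 lower, with a median log2 fold change of -0.13. Slc1a4, a neutral amino acid carrier that takes serine, rose by 0.68 and Slc6a9, the glycine transporter GLYT1, by 0.81 on the log2 scale. Sfxn1, the mitochondrial serine carrier, had normalized counts of 2817, 2763 and 2724 with vehicle and 1998, 2032 and 2169 with S1P and fell by 0.42. Slc25a38, the mitochondrial glycine carrier, fell by 0.49. The call of Slc25a38 was lost without vehicle-treated replicate 1 or 3, at adjusted p of 0.0679 and 0.0773 by edgeR. With S1P-treated replicate 1 left out, 5 transport genes were called lower, as Slc1a5, Slc38a1 and Slc36a1 were added to these carriers, and their log2 fold changes over all samples were -0.24, -0.28 and -0.40. Of 9 tested genes of serine use, 2 were higher and 2 lower, with a median of 0.04. Sars1, the cytosolic seryl-tRNA synthetase, rose by 0.33, and Sars2, its mitochondrial counterpart, fell by 0.49. The call of Sars1 was lost without vehicle-treated replicate 3 (0.29), with S1P-treated replicate 1 left out (0.27), and with no filter on low counts (0.30, before rounding under the threshold). Grhpr, a reductase of hydroxypyruvate, rose by 0.77, and Ptdss1, which builds serine into phosphatidylserine, fell by 0.56. Sptlc1, a subunit of the enzyme that begins sphingolipid synthesis from serine, had a log2 fold change of -0.23 with an adjusted p of 0.0199 by edgeR, under the threshold on size, and Sptlc2, the other subunit, had 0.07.

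In the methionine cycle and transsulfuration, 9 genes were tested, of which 1 was higher and 1 lower, with a median log2 fold change of -0.07. Cth, which completes the conversion of homocysteine and serine to cysteine, had normalized counts of 99.4, 124 and 118 with vehicle and 347, 272 and 286 with S1P. Its mean was 114 ± 13.0 with vehicle and 301 ± 39.9 with S1P (SD, n = 3 each), and the log2 fold change was 1.42 ± 0.13 (SE) with an adjusted p of 4.67e-05 by edgeR. Cbs, the enzyme of the step before, stood at 8.53 to 21.6 normalized counts over all samples and was not called. Mat2a, which makes S-adenosylmethionine, stood at 6381 ± 321 with vehicle and 3686 ± 208 with S1P (SD, n = 3 each), and its log2 fold change was -0.79 with an adjusted p of 3.95e-05 by edgeR.

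Around Asns, 11 genes of asparagine and aspartate metabolism were tested, of which 3 were higher and 1 lower, with a median log2 fold change of 0.13. Gls2, a glutaminase of low level here, rose by 1.11 on the log2 scale, from 81.2 ± 18.6 to 174 ± 27.5 normalized counts (SD, n = 3 each). Nars1, the asparaginyl-tRNA synthetase, rose by 0.33 and Got1, the cytosolic aspartate aminotransferase, by 0.31. Slc25a13, a mitochondrial aspartate-glutamate carrier, fell by 0.33. The last 3 calls depended on single libraries, and that of Got1 on the processing too. Nars1 was not called without vehicle-treated replicate 3 (0.30, adjusted p = 0.0554 by edgeR) or S1P-treated replicate 2 (0.28). Got1 was not called without any 1 of the vehicle-treated replicates (adjusted p of 0.0546 to 0.085 by edgeR) or without S1P-treated replicate 3 (0.21), nor with total-count scaling or no filter on low counts (0.29 in each). Got2, the mitochondrial aspartate aminotransferase, was at -0.25 over all samples and was called lower with S1P-treated replicate 3 left out. Slc25a13 was not called without vehicle-treated replicate 1 or 2 or S1P-treated replicate 1 or 2, with log2 fold changes between -0.34 and -0.27. Asrgl1, an asparaginase of the cytosol, had a log2 fold change of -0.07 and was not called.

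Around Aldh18a1, 11 genes of proline, ornithine and arginine metabolism were tested, of which 3 were higher and 5 lower, with a median log2 fold change of -0.33. The groups did not overlap for any of the 11 genes, 3 of which were not called, and the same held for 45.6% of all tested genes. Pycr1 and Pycr3, pyrroline-5-carboxylate reductases that finish proline synthesis, went in opposite directions. Pycr1, whose start region is shown above, had normalized counts of 89.2, 114 and 82.4 with vehicle and 189, 136 and 138 with S1P and rose by 0.72 on the log2 scale, with an adjusted p of 0.0102 by edgeR. Its call was lost without vehicle-treated replicate 3 (0.63, adjusted p = 0.0531 by edgeR). Pycr3 had 262, 256 and 268 with vehicle and 162, 150 and 159 with S1P and fell by 0.74. Aldh4a1, of proline breakdown, fell by 0.60, Slc25a15, the mitochondrial ornithine carrier, by 0.55 and Odc1, which makes putrescine from ornithine, by 0.40. Asl, the argininosuccinate lyase, rose by 0.44 and P4ha1, a subunit of prolyl hydroxylase, by 0.52. Asl was not called without vehicle-treated replicate 1 or 3 or S1P-treated replicate 3 (adjusted p of 0.0526 to 0.0654 by edgeR), and Aldh4a1 was not called without vehicle-treated replicate 1 or 3 or S1P-treated replicate 2 or 3 (0.0507 to 0.0924).

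ATF4 itself and related stress genes are given for comparison and are not independent evidence, since they were chosen with results of these data known. Of 21 tested, 14 were higher and 0 lower, with a median log2 fold change of 0.70. At an unadjusted p under 0.05 by edgeR 0 were lower, and DESeq2 and limma-voom called 0 lower. Atf4 had a log2 fold change of 0.24 with an adjusted p of 0.022 by edgeR, under the threshold on size. Cebpg, the gene of a partner of ATF4, rose by 0.55, and Vldlr, a lipoprotein receptor, rose most in the list, by 3.29. The other genes called were Ddit3, Atf3, Atf5, Cebpb, Trib3, Chac1, Sesn2, Nupr1, Ppp1r15a, Eif4ebp1, Ddit4 and Eif2ak2, with log2 fold changes from 0.63 (Sesn2) to 2.49 (Nupr1). Cebpb was not called without vehicle-treated replicate 1 or S1P-treated replicate 3, nor Chac1 without vehicle-treated replicate 3. Myc, whose product drives many of these enzymes in activated T cells, had a log2 fold change of 0.14 and was not called. Beside this list, Aldh1l2, Asns and Mthfd1l were called higher, with log2 fold changes of 2.65, 0.81 and 0.46, and Shmt1 was called lower (-0.68). Mthfd2 and Aldh18a1, at 0.23 and 0.19, were not called. Phgdh, Psat1, Psph and Shmt2, which are also named as ATF4 targets, had log2 fold changes from -0.11 to 0.05.

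**Figure D5:**
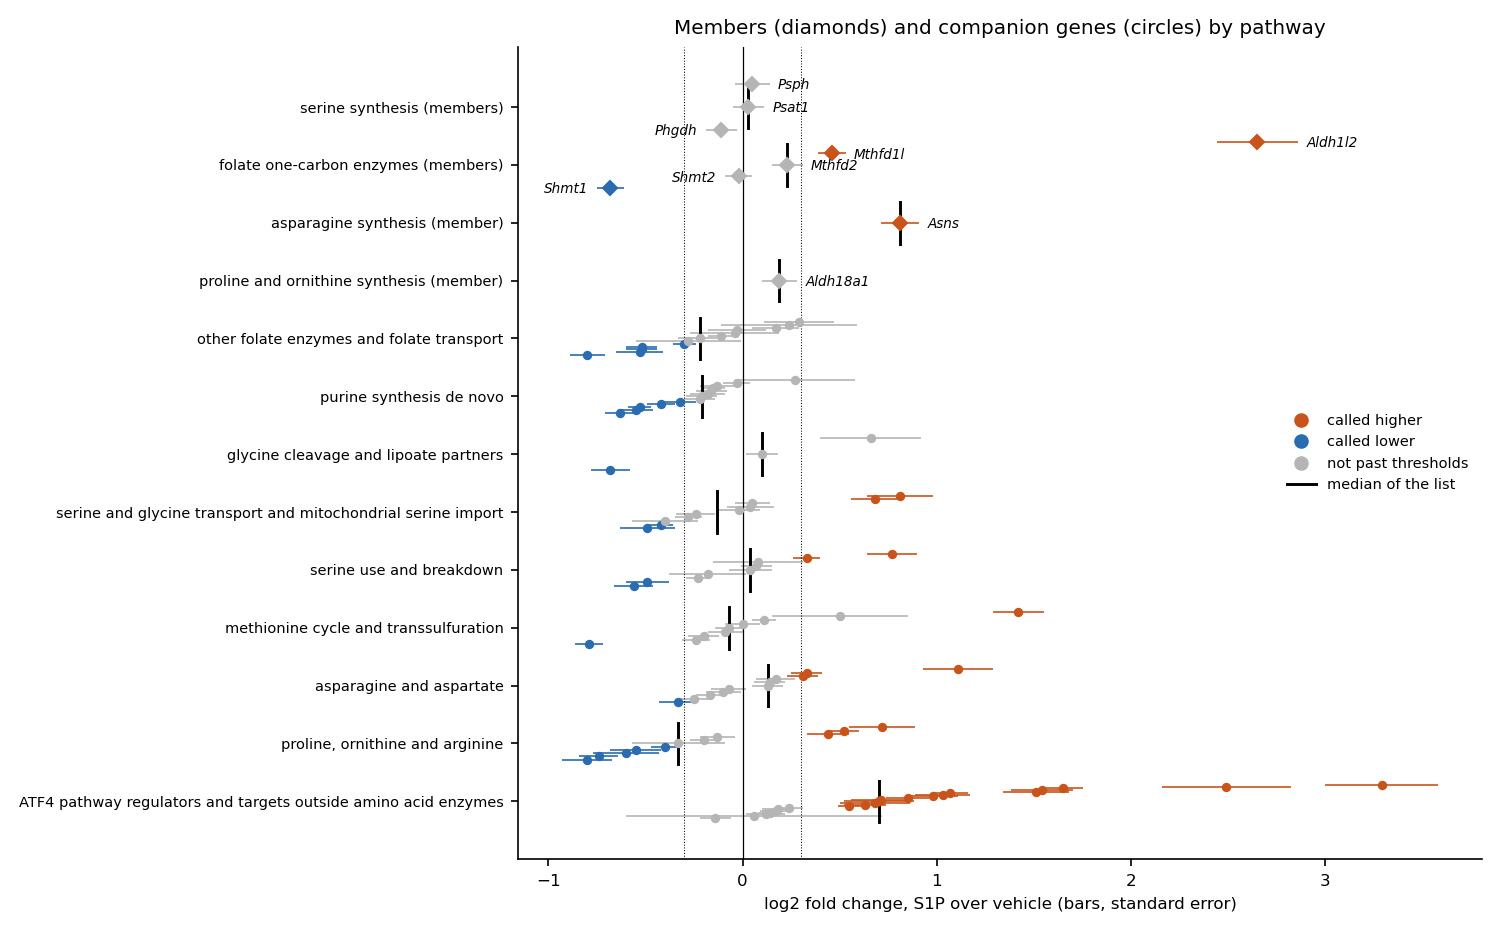
Log2 fold changes with standard errors of the members (diamonds) and tested companion genes (circles) by pathway, colored by call, with black bars at each list's median and dotted lines at the threshold of 0.3 in size. Called folate and purine companions lie to the left, from -0.80 to -0.30, while the called folate members lie at -0.68, 0.46 and 2.65.

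Read assignment limits some of these values. The libraries were strand-specific, and the strand setting of the counting is not given in the sources used here. Exons of other genes on the opposite strand cover 19.5% of the exonic bases of Aldh18a1, 17.7% of Shmt2, 14.1% of Aldh1l2, 9.65% of Shmt1, 6.32% of Psph, 3.34% of Asns and 1.29% of Mthfd1l. Of the overlapping genes in the table, Smcr8, which overlaps Shmt1, had a log2 fold change of 0.00, Cct6a, which overlaps Psph, had -0.35, and Ndufa4l2, which overlaps Shmt2, had at most 5 counts in a sample. Among companions the share was 38.7% for Grhpr, 33.8% for Slc6a9, 30.8% for Mat2a and 82.4% for Ddit3. Phgdh shares 39.8% of its 31-base stretches with transcripts of processed pseudogenes. These had 162 counts at most in sum over the 6 samples (Gm7901), against 24557 for Phgdh. Low pseudogene counts do not show that Phgdh lost few reads, since reads with several matches may have been left out. The value of Phgdh, its place by TPM and the ratio of Psat1 to Phgdh are uncertain to the extent that the counting split or left out such reads.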

How the data were processed

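RNA-seq libraries of polyadenylated RNA from 6 samples were analysed. The authors made strand-specific libraries and read them as pairs. Their tools were Trim Galore for trimming, STAR for alignment and featureCounts for counting. The table the authors deposited gives raw counts per gene as whole numbers. Per the submitters' processing notes the build was GRCm39, and the annotation release, strand setting and treatment of multi-mapping reads are not given in the sources used here.

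Of 56941 identifiers, 56323 matched a symbol in GENCODE vM39, which also gave positions and lengths. Counts were filtered with filterByExpr (13299 genes), scaled by TMM and tested with edgeR 4.0.16 (quasi-likelihood test, treatment as the only term, limma 3.58.1, R 4.3.3), after tests on simulated data. Normalized counts are counts divided by TMM-scaled relative library sizes. Ratios used counts plus 0.5. The common biological coefficient of variation was 0.0826. No replicate pair was a duplicate.

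The members and lists were chosen with earlier results of these data known. All members are named, and companions past both thresholds or with the largest change in their list, apart from items not reported here; Paics, Mthfd2l, Amt, Dld, Slc1a5, Slc38a1, Slc36a1, Got2, Cbs, Sptlc1, Sptlc2, Asrgl1, Atf4 and Myc were named after their values were seen. Of 123 listed names, 5 had no gene of that symbol, most of them older symbols. Alternatives were DESeq2 1.42.0, limma-voom, RLE, upper-quartile and total-count scaling, other filters and thresholds, the replicate block, each replicate left out, and the longest transcript as length.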

Additional observations from a re-analysis of the deposited data

How the results depend on the processing

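The calls of Shmt1, Mthfd1l, Aldh1l2 and Asns were kept in 15 of 16 alternatives. Only the threshold of a log2 fold change of at least 1 changed the counts of called members, companions or all genes by more than 1.5 times, leaving 1 member higher (Aldh1l2) and 0 lower, 9 companions higher and 0 lower, and 383 genes higher and 82 lower overall. With an adjusted p alone, Mthfd2 was also called. Without 1 replicate in turn, between 1158 and 1736 of all tested genes were higher and between 961 and 1492 lower, and the member counts remained 3 and 1. The uncalled members close to 0 changed sign. Shmt2 was 0.01 with upper-quartile factors, and without 1 replicate in turn Shmt2 ranged from -0.04 to 0.01, Psph from -0.01 to 0.14 and Psat1 from -0.04 to 0.13. Mthfd2 had an adjusted p of 0.104 with total-count scaling and 0.101 without a filter, and of 0.104 to 0.17 with 1 vehicle-treated replicate left out. Of 47 called companions, 35 were called in all 15 alternatives other than that threshold.

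Deviations from the group means had correlations of 0.12, -0.00598 and 0.0483 between samples of the same replicate number. With 3 samples per group, low correlations cannot show whether the samples were prepared in pairs. With a replicate block, 3 members were higher and 1 lower, and 1697 genes were higher and 1423 lower overall. The adjusted p of Mthfd2 was then 0.0558. Depth limits Aldh1l2, with 23 to 50 counts per vehicle-treated sample, more than the other members.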
